A study of Mus musculus with 16 samples.

Results

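The genes described here encode the transferases that attach glucuronic acid, glutathione or sulfate to small molecules. They were chosen by name, as protein-coding mouse genes whose symbol begins with Ugt1a, Ugt2a, Ugt2b, Gsta, Gstk, Gstm, Gsto, Gstp, Gstt, Mgst or Sult and that held at least 10 counts summed over all libraries. This rule gave 48 genes of the 45513 in the count files. A further 15 protein-coding genes with these names had fewer than 10 counts. The 48 members fell into 7 families, which were UGT1A with 9 genes, UGT2 with 9, the alpha class GSTA with 4, the mu class GSTM with 7, the kappa, omega, pi and theta classes (called the other GST below) with 9, MGST with 3 and SULT with 7.

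These enzymes carry out the second phase of detoxification. The UGT enzymes sit in the membrane of the endoplasmic reticulum and transfer glucuronic acid from UDP-glucuronate to bilirubin, bile acids, steroids and drugs. The cytosolic GST enzymes join glutathione to reactive electrophiles, the MGST enzymes do so in membranes, and the cytosolic SULT enzymes transfer sulfate from the donor PAPS to phenols and steroids. The small intestinal epithelium is known as one of the main sites of this metabolism outside the liver, and absorptive enterocytes are its most numerous cells.

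The data were 16 RNA sequencing libraries, made from small intestines of 8 mice. All mice were Atoh1(WT)CreERT2 R26RtdTom animals that received tamoxifen, at 1 mg per day for 3 days per the labels. In these mice CreERT2 is made from the locus of Atoh1, which encodes a transcription factor that specifies secretory cells, and recombination switches on the red reporter tdTomato (tdTom), which the progeny of a labelled cell keep. From each mouse, live epithelial cells positive for EpCAM were sorted by the reporter. The tdTompositive fraction was enriched for secretory cells, and the tdTomnegative fraction held the unlabelled cells of the preparation. The paper describes sorting from pooled crypt-enriched fractions of the proximal small intestine, after a villus-enriched fraction was discarded. No group without tamoxifen was compared, and age and strain were not given in the labels.

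The libraries held 17116405 to 25323567 assigned counts. Atoh1 followed the labels, with 48.0 to 80.1 CPM (counts scaled by library total and TMM factor) in tdTompositive and 0.502 to 1.25 CPM in tdTomnegative libraries. All 8 markers each of goblet, Paneth and enteroendocrine cells and the 7 tested tuft cell markers were higher in tdTompositive cells. All 8 absorptive markers, such as the sucrase gene Sis and the apolipoprotein gene Apoa4, were lower. Of the 8 stem cell markers, 4 were higher in tdTompositive cells and none was lower (median log2 fold change 0.44). In the test described below, 25.8% of all genes tested were higher and 30.0% lower. The summed absorptive markers were 5.96 to 10.6 times higher in the tdTomnegative library of each mouse, but they still reached 1563 to 6021 CPM in tdTompositive libraries. Both libraries of mouse 7 stood apart. Their summed absorptive markers were 14550 CPM in tdTomnegative and 1563 CPM in tdTompositive cells, against 24823 to 38346 CPM and 2821 to 6021 CPM in the other mice. The stem cell markers of the tdTomnegative library of mouse 7 summed to 2894 CPM, against 1157 to 1817 CPM in the others. They summed to 2210 CPM in the tdTompositive library of mouse 7, so in this mouse the stem cell sum was lower in labelled cells. The immune markers of its tdTomnegative library summed to 134.5 CPM, near the 148.1 CPM of mouse 8. The remaining mice had 10.6 to 39.0 CPM.

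To ask how RNA of the conjugating enzymes differed between labelled and unlabelled cells, tdTompositive was compared with tdTomnegative within each mouse by edgeR's quasi-likelihood test. Most of the transferases were lower in the labelled cells, and 2 were higher. Of the 48 members, 40 passed the filter on low counts, and at an adjusted p under 0.01 the test called 34 of them lower and 2 higher (Gsta4 and Sult1c2). Over all 15323 genes tested, 55.8% were called, 30.0% as lower and 25.8% as higher, beside 90.0%, 85.0% and 5.0% of the tested members. The median log2 fold change was -1.49 over the tested members and 0.02 over all genes tested. The ranges of the fractions did not overlap for 25 of the 40 tested members, against 31.6% of all genes tested. Of the 34 genes called lower, 33 were lower in 8 of 8 mice and Gstt1 in 7 of 8. In bulk samples, fewer cells that express a gene and less of its RNA per cell cannot be told apart.

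**Figure D1:**
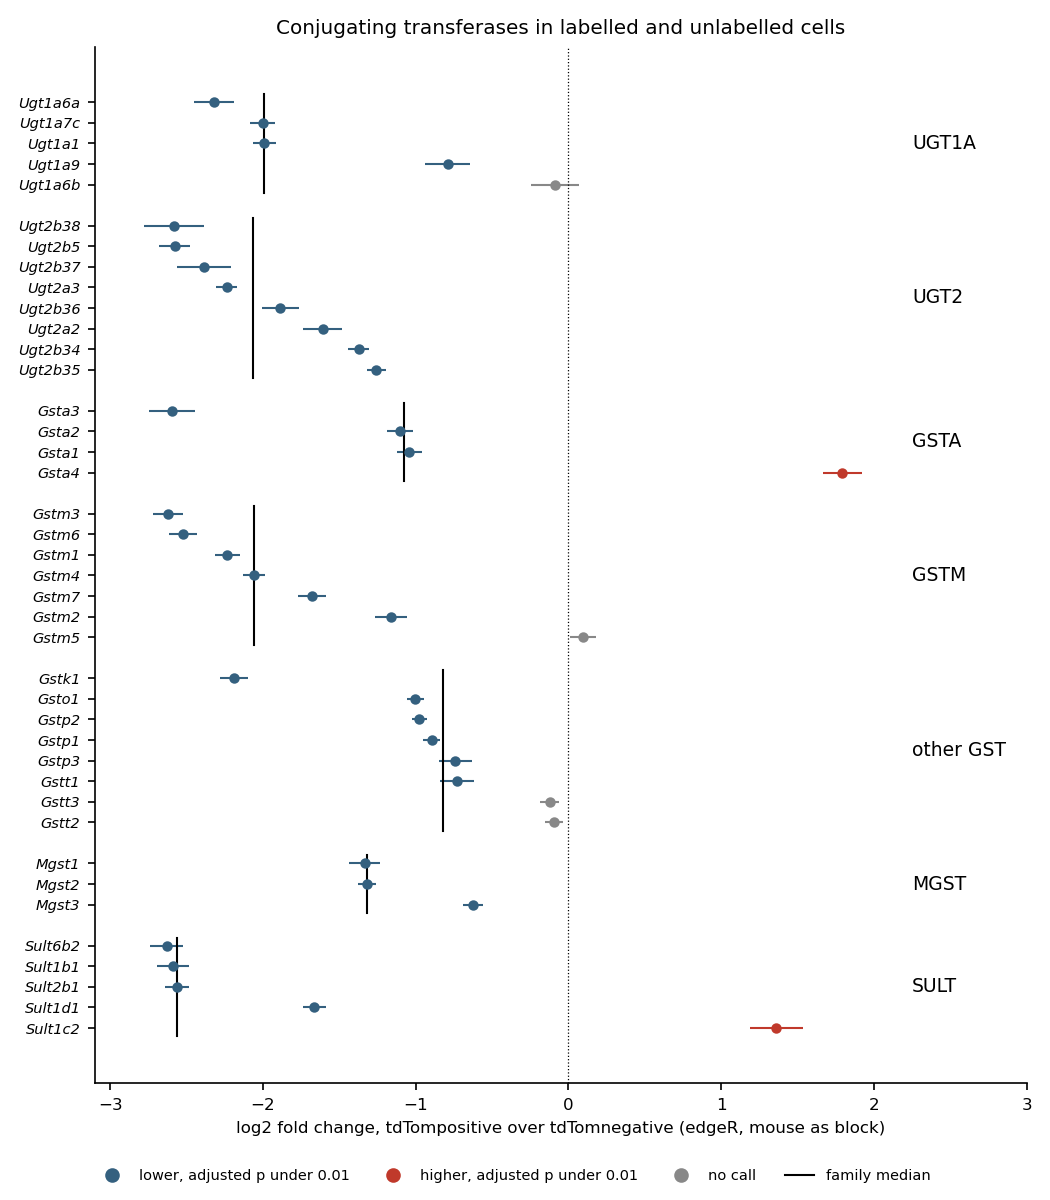
Log2 fold change of the 40 tested members between tdTompositive and tdTomnegative cells, with the standard error as a horizontal bar and the median of each family as a vertical line (edgeR, mouse as block, 8 mice). Values run from -2.63 for Sult6b2 to 1.79 for Gsta4, and 4 genes had no call.

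As a share of all counts, the 48 members took 0.322% to 0.758% of the tdTomnegative libraries and 0.132% to 0.275% of the tdTompositive libraries. Their summed level was 5294 ± 1051 CPM in tdTomnegative and 2129 ± 423 CPM in tdTompositive cells (SD, n = 8 each), and it was 2.27 to 2.71 times higher in the tdTomnegative library of each mouse. The ratio of the absorptive markers exceeded this in every mouse. The families differed in the size of the change. Median log2 fold changes were -2.56 for SULT, -2.06 for UGT2, -2.06 for GSTM, -1.99 for UGT1A, -1.32 for MGST, -1.07 for GSTA and -0.82 for the other GST. These medians weigh rare and abundant genes alike, and the summed levels gave another order. The median ratio over mice, tdTomnegative to tdTompositive, was 4.90 for GSTM, 4.81 for SULT and 4.02 for UGT1A. It was 2.94 for UGT2, 1.91 for MGST, 1.88 for the other GST and 1.20 for GSTA. No test was made between families, since their members are not replicates. Without mouse 7 the test again called 34 members lower and 2 higher, with a median of -1.53.

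**Figure D2:**
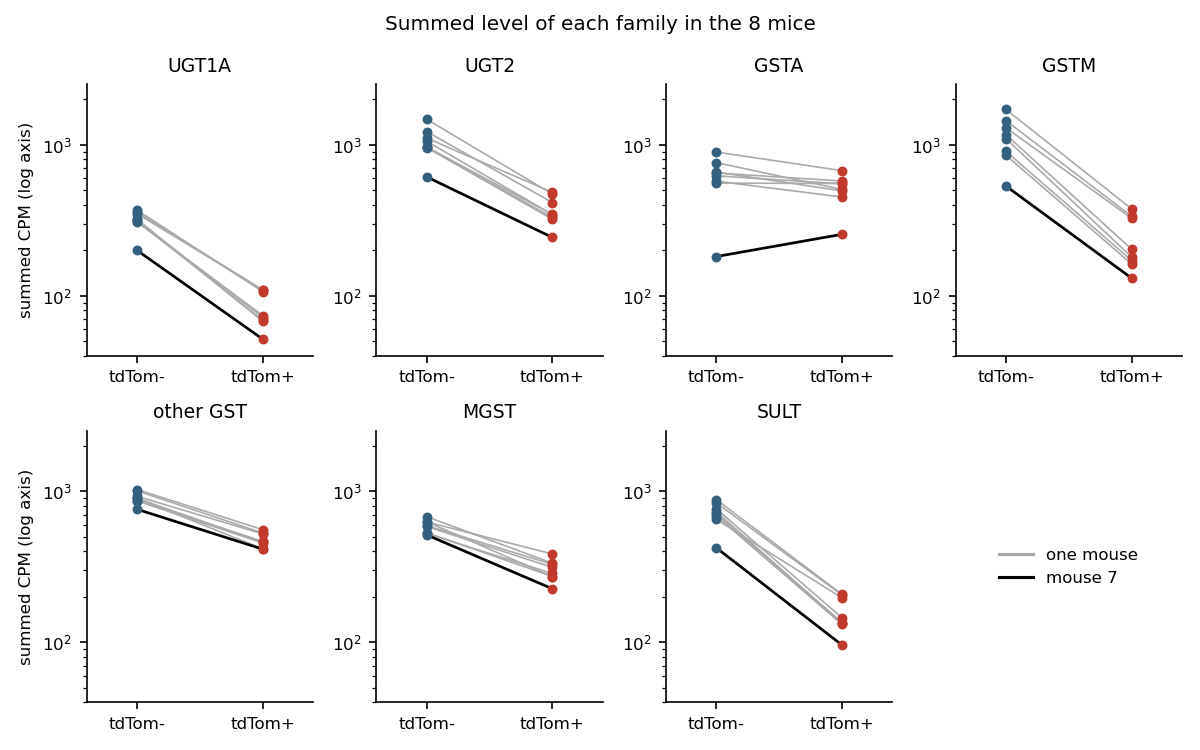
Summed CPM of the members of each family on a log axis, with 1 line per mouse from its tdTomnegative to its tdTompositive library and mouse 7 in black. In 6 families every line falls, and in GSTA the line of mouse 7 rises from 182 to 255 CPM.

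The UGT1A family is 1 locus on the plus strand of chromosome 1 (GRCm38 chr1:88055388-88220002), in which alternative first exons, each with its own promoter, are joined to common last exons. The common exons hold 1311 bases between 88215044 and 88218997, and reads there belonged to several genes and were not assigned, so counts came from the 879 to 2142 exon bases that each gene has to itself. Summed UGT1A levels were 316 ± 52.3 CPM in tdTomnegative and 82.4 ± 22.5 CPM in tdTompositive cells (SD, n = 8 each), with a ratio of 3.21 to 4.74 in the individual mice. Of the 9 genes, 5 were tested, 4 were lower and none was higher.

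Ugt1a7c, a UGT of the gut and other tissues outside the liver, had the highest counts. Its level was lowest at 114, median 186 and highest at 212 CPM in tdTomnegative libraries and 29.8, 41.6 and 61.3 CPM in tdTompositive libraries. The fractions did not overlap, and the level fell 4.01-fold (log2 SE 0.08, adjusted p = 7.75e-11). Of its own bases, 998 lie beyond the end of the common exons, so its count could include the ends of transcripts begun at other first exons. Ugt1a1, the bilirubin UGT, ranged from 81.2 to 152 CPM in tdTomnegative and from 18.8 to 44.0 CPM in tdTompositive libraries and changed by -1.99 ± 0.08 on the log2 scale (SE, adjusted p = 5.47e-11), or 3.98-fold. Per kilobase of its exons Ugt1a1 stood 1.33 times above Ugt1a7c in the tdTomnegative median and 1.35 times in the tdTompositive median, and with only the bases each gene has to itself the factors were 1.47 and 1.496. The make-up of the family was thus close in both fractions, with a median of 56.7% Ugt1a7c and 39.6% Ugt1a1 in tdTomnegative and 55.7% and 39.7% in tdTompositive libraries.

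The remaining UGT1A genes were rare. Ugt1a6a, an enzyme for planar phenols, had the most negative change of the family at -2.32 ± 0.13 (SE, adjusted p = 2.31e-09), from 1.60 to 9.20 CPM in tdTomnegative to 0.250 to 1.90 CPM in tdTompositive libraries, which overlapped between mice although the gene was lower in 8 of 8. Most of its own bases, 1920 of 2142, lie between the common exons. Ugt1a9 was lower by -0.79 ± 0.15 on the log2 scale (SE, adjusted p = 0.000356). Ugt1a6b, at a median of 1.05 CPM in tdTomnegative and 1.06 CPM in tdTompositive cells, had no call (log2 fold change -0.09, adjusted p = 0.647), and the sign of its change turned under another filter. Ugt1a10, Ugt1a8, Ugt1a5 and Ugt1a2 had at most 20 counts in any library and were not tested.

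The UGT2 genes, which glucuronidate steroids, bile acids and fatty acids, lie in 1 cluster on chromosome 5 (chr5:86889767-87490871). All 8 tested members were lower in tdTompositive cells, and their sum was 1044 ± 247 CPM in tdTomnegative and 369 ± 81.4 CPM in tdTompositive cells (SD, n = 8 each). Ugt2b34 made up a median of 74.1% of this in tdTomnegative and 80.8% in tdTompositive libraries. Its values were lowest at 470, median 755 and highest at 1070 CPM in tdTomnegative and 205, 281 and 385 CPM in tdTompositive libraries, without overlap (log2 fold change -1.37 ± 0.07, SE, adjusted p = 8.20e-10). Together with Ugt2b35 (-1.26) it changed the least of the family. The other tested members changed by -1.61 for Ugt2a2, -1.89 for Ugt2b36, -2.24 for Ugt2a3, -2.38 for Ugt2b37, -2.58 for Ugt2b5 and -2.59 for Ugt2b38. Ugt2b38 ranged from 1.55 to 10.8 CPM with a median of 6.68 in tdTomnegative and from 0 to 2.37 CPM with a median of 0.874 in tdTompositive libraries (log2 fold change -2.59 ± 0.20, SE, adjusted p = 5.55e-08). Its lowest value in each fraction was that of mouse 7, with no count in tdTompositive cells, where 3 counts are worth 0.118 to 0.175 CPM over the libraries. Without mouse 7 its change was -2.50. Of the 50-base stretches of Ugt2b5 and Ugt2b38 transcripts, 41.7% and 37.4% also occur in other genes, and of Ugt2a2 93.6%, so these counts are uncertain. Ugt2a1 alone held 68.6% of the Ugt2a2 stretches and was not counted as a gene of its own. The Ugt2a2 count could therefore include Ugt2a1 transcripts. Ugt2b1 had at most 3 counts in a library and was not tested.

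In the alpha class the leading gene differed between the fractions. Gsta4, the enzyme for 4-hydroxynonenal and other aldehydes from oxidised lipids, was the one abundant member that was higher in tdTompositive cells, while its 3 relatives were lower. Gsta4 was lowest at 22.2, median 85.3 and highest at 116 CPM in tdTomnegative and 150, 266 and 317 CPM in tdTompositive libraries. The fractions did not overlap, the gene was higher in 8 of 8 mice, and its level rose 3.46-fold (log2 fold change 1.79 ± 0.13, SE, adjusted p = 2.68e-08). Mouse 7 was lowest in both fractions and had the largest change, and without it the log2 fold change was 1.67. No 50-base stretch of the Gsta4 transcripts occurs in another gene.

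Gsta1, with the highest counts of the family over all libraries, was lowest at 120, median 412 and highest at 585 CPM in tdTomnegative and 79.8, 199 and 271 CPM in tdTompositive libraries. Its ranges overlapped between mice, but it was lower in 8 of 8 mice (log2 fold change -1.04 ± 0.08, SE, adjusted p = 6.35e-08). Gsta2 changed by -1.10 and Gsta3, at 2.23 to 12.9 CPM in tdTomnegative and 0.301 to 2.24 CPM in tdTompositive libraries, by -2.60 ± 0.15 (SE, adjusted p = 3.56e-09). Gsta4 made up 12.2% to 13.7% of the alpha class counts in tdTomnegative and 45.8% to 58.9% in tdTompositive libraries, and Gsta1 64.9% to 66.8% and 31.3% to 41.6%. These shares do not depend on the scaling of the libraries, and those of mouse 7 in tdTomnegative cells lay within 1 percentage point of the median although its levels were the lowest. In tdTompositive cells mouse 7 had the highest Gsta4 share, 58.9% against a median of 53.3%, and the lowest Gsta1 share, 31.3% against 36.2%, and without it the shares were 45.8% to 55.2% and 34.2% to 41.6%. Gsta4 and Gsta1 are neighbours on the plus strand of chromosome 9 (chr9:78191966-78209348 and chr9:78230656-78242684), and Gsta2 lies beyond them on the minus strand. Because the members moved in opposite directions, the summed GSTA level was 612 ± 205 CPM in tdTomnegative and 507 ± 121 CPM in tdTompositive cells (SD, n = 8 each). The ratio in the individual mice was 0.712 to 1.51, with mouse 7 the 1 mouse below 1. Of the 50-base stretches of Gsta1, 90.5% occur in other genes, 75.7% in Gm3776 alone, so the Gsta1 and Gsta2 counts are uncertain against their copies.

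**Figure D3:**
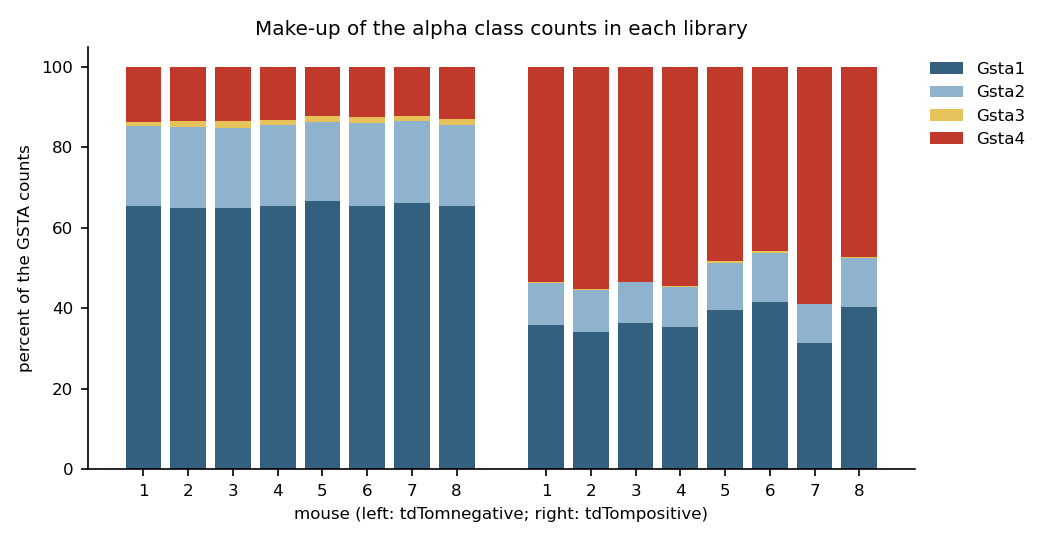
Percent of the alpha class counts taken by each of the 4 GSTA genes in each library, with the 8 tdTomnegative libraries on the left and the 8 tdTompositive libraries on the right. Gsta4 takes 12.2% to 13.7% on the left and 45.8% to 58.9% on the right.

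The mu class, which conjugates epoxides and quinones, lies in 1 cluster on chromosome 3 (chr3:107895821-108044894) and had the most negative median of the GST families. Of its 7 genes, 6 were lower without overlap between fractions, and the sum was 1124 ± 368 CPM in tdTomnegative and 235 ± 94.4 CPM in tdTompositive cells (SD, n = 8 each). Gstm3, the most abundant, was lowest at 265, median 595 and highest at 940 CPM in tdTomnegative and 38.1, 83.1 and 180 CPM in tdTompositive libraries (log2 fold change -2.62 ± 0.10, SE, adjusted p = 3.84e-11). Gstm6 changed by -2.53, Gstm1 by -2.23, Gstm4 by -2.06, Gstm7 by -1.68 and Gstm2 by -1.16. Gstm5, a mu enzyme known from brain and testis, was at 11.0 to 16.1 CPM in tdTomnegative and 11.1 to 17.3 CPM in tdTompositive libraries and had no call (log2 fold change 0.10 ± 0.08, SE, adjusted p = 0.328). It is the member of the cluster on the plus strand, at one end, and the other 6 lie on the minus strand. Its share of the mu class counts was 0.683% to 3.04% in tdTomnegative and 4.30% to 13.2% in tdTompositive libraries. Of the 50-base stretches of Gstm3 28.8% and of Gstm1 18.9% occur in other genes, and none of those of Gstm4 and Gstm5.

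Most of the other GST genes changed less. Gsto1, an omega enzyme that reduces dehydroascorbate and methylated arsenic, had the highest counts, with 350 to 457 CPM and a median of 421 in tdTomnegative and 171 to 237 CPM and a median of 212 in tdTompositive libraries, without overlap (log2 fold change -1.003 ± 0.056, SE, adjusted p = 2.03e-09). The pi class genes Gstp1, Gstp2 and Gstp3 changed by -0.90, -0.98 and -0.74, and 54.3% of the 50-base stretches of Gstp2 and 33.7% of those of Gstp1 occur in other genes. Gstk1, the kappa enzyme of mitochondria and peroxisomes, was the exception in size. It was lowest at 21.1, median 51.8 and highest at 60.5 CPM in tdTomnegative and 5.16, 10.7 and 15.1 CPM in tdTompositive libraries, without overlap (log2 fold change -2.19 ± 0.09, SE, adjusted p = 1.18e-10). The theta class was divided. Gstt1 was lower (-0.73 ± 0.11, SE, adjusted p = 5.30e-05), in 7 of 8 mice, and Gstt3 and Gstt2 had no call (log2 fold changes -0.12 and -0.10, adjusted p = 0.103 and 0.161), with a sign of Gstt2 that turned under another filter. Gsto2 had at most 8 counts in a library and was not tested.

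All 3 membrane-bound enzymes were lower, and none of their ranges overlapped. Mgst3, a glutathione transferase and peroxidase of the endoplasmic reticulum, was lowest at 233, median 262 and highest at 298 CPM in tdTomnegative and 122, 175 and 213 CPM in tdTompositive libraries. Its log2 fold change of -0.62 ± 0.07 was the smallest among the called members (SE, adjusted p = 1.54e-06), and it took a median of 45.03% of the MGST counts in tdTomnegative and 56.68% in tdTompositive libraries. Mgst1 ranged from 132 to 224 CPM with a median of 154 in tdTomnegative and from 47.2 to 86.0 CPM with a median of 60.5 in tdTompositive libraries (log2 fold change -1.34 ± 0.10, SE, adjusted p = 5.85e-08). Mgst2, which can make leukotriene C4, changed by -1.32. In tdTomnegative cells the Mgst1 level of mouse 7 was 187 CPM, below only mouse 8 at 224 CPM.

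NRF2, the transcription factor of the antioxidant response, is known to act on many GST genes through the antioxidant response element, so the promoters of the members were searched for its core letters, TGACNNNGC, on both strands. RefSeq promoter sequences (GRCm38.p6, from 250 bases before to 50 after a start site) matched 44 of the 48 members, with 54 promoters, and had no entry for Gsta4, Gstt2, Sult4a1 and Ugt1a6b. The letters were in 4 of the 54 promoters, or 7.41%, and in 12.4% of the 32851 promoters in the table. The letters were thus not more frequent in the members than in all promoters, and the 4 promoters are shown as a description only. Each is given as 110 bases around the match in the direction of transcription, with the matched letters in capitals.
Gsta3, chr1:21240413-21240522, plus strand: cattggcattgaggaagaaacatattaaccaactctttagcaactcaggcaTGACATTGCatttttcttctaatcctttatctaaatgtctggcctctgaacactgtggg
Gstm7, chr3:107931685-107931794, minus strand: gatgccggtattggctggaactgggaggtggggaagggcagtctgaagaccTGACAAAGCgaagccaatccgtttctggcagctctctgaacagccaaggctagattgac
Gstm5, chr3:107895744-107895853, plus strand: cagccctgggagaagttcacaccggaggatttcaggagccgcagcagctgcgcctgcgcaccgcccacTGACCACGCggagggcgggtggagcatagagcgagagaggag
Mgst1, chr6:138140417-138140526, plus strand: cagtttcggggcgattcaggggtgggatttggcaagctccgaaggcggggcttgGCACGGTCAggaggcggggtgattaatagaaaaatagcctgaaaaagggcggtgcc
The first matched base lies 121 bases before the start site of that promoter in Gsta3, 129 in Gstm7, 42 in Gstm5 and 56 in Mgst1. The match in Mgst1 is the reverse complement of the letters searched. Gstm7 and Mgst1 each have another promoter entry without the letters, and their matches lie within the gene bounds used for counting. A place upstream of every start of Gstm7 and Mgst1 is therefore not shown. Of the 4 genes, Gsta3, Gstm7 and Mgst1 were lower in tdTompositive cells (-2.60, -1.68 and -1.34 on the log2 scale) and Gstm5 had no call. Among all tested members, 85.0% were lower. A match is a description of the letters and was not tested as a binding site. The letters GCGTG of the xenobiotic response element, which the aryl hydrocarbon receptor binds, were in 25.9% of the member promoters and 32.4% of all promoters.

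The cytosolic sulfotransferases had the most negative median of the families. Their sum was 709 ± 139 CPM in tdTomnegative and 156 ± 41.4 CPM in tdTompositive cells (SD, n = 8 each), 3.31 to 5.44 times higher in the tdTomnegative library of each mouse, and all 5 tested genes had ranges that did not overlap. Sult1b1, a thyroid hormone and phenol sulfotransferase of the gut, had the highest counts, lowest at 196, median 310 and highest at 418 CPM in tdTomnegative and 27.6, 46.3 and 86.9 CPM in tdTompositive libraries (log2 fold change -2.59 ± 0.10, SE, adjusted p = 8.47e-11). Its neighbour on chromosome 5, Sult1d1, which sulfates catecholamines, changed less (-1.66) and took a median of 29.1% of the SULT counts in tdTomnegative and 44.2% in tdTompositive libraries. Sult2b1, the cholesterol sulfotransferase, changed by -2.56. Sult6b2 had the most negative change of all members, from 16.2 to 73.2 CPM with a median of 63.6 in tdTomnegative to 2.81 to 15.0 CPM with a median of 8.997 in tdTompositive libraries (log2 fold change -2.63 ± 0.11, SE, adjusted p = 8.19e-11). Sult1c2 was the other member that was higher. It was rare in both fractions, with 0.593 to 2.32 CPM and a median of 1.27 in tdTomnegative and 2.62 to 4.57 CPM and a median of 3.18 in tdTompositive libraries. It rose 2.57-fold in 8 of 8 mice, without overlap (log2 fold change 1.36 ± 0.17, SE, adjusted p = 1.08e-05), on 13 to 55 counts in tdTomnegative and 47 to 108 counts in tdTompositive libraries. Sult1a1 and Sult4a1 had at most 10 counts in a library and were not tested.

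**Figure D4:**
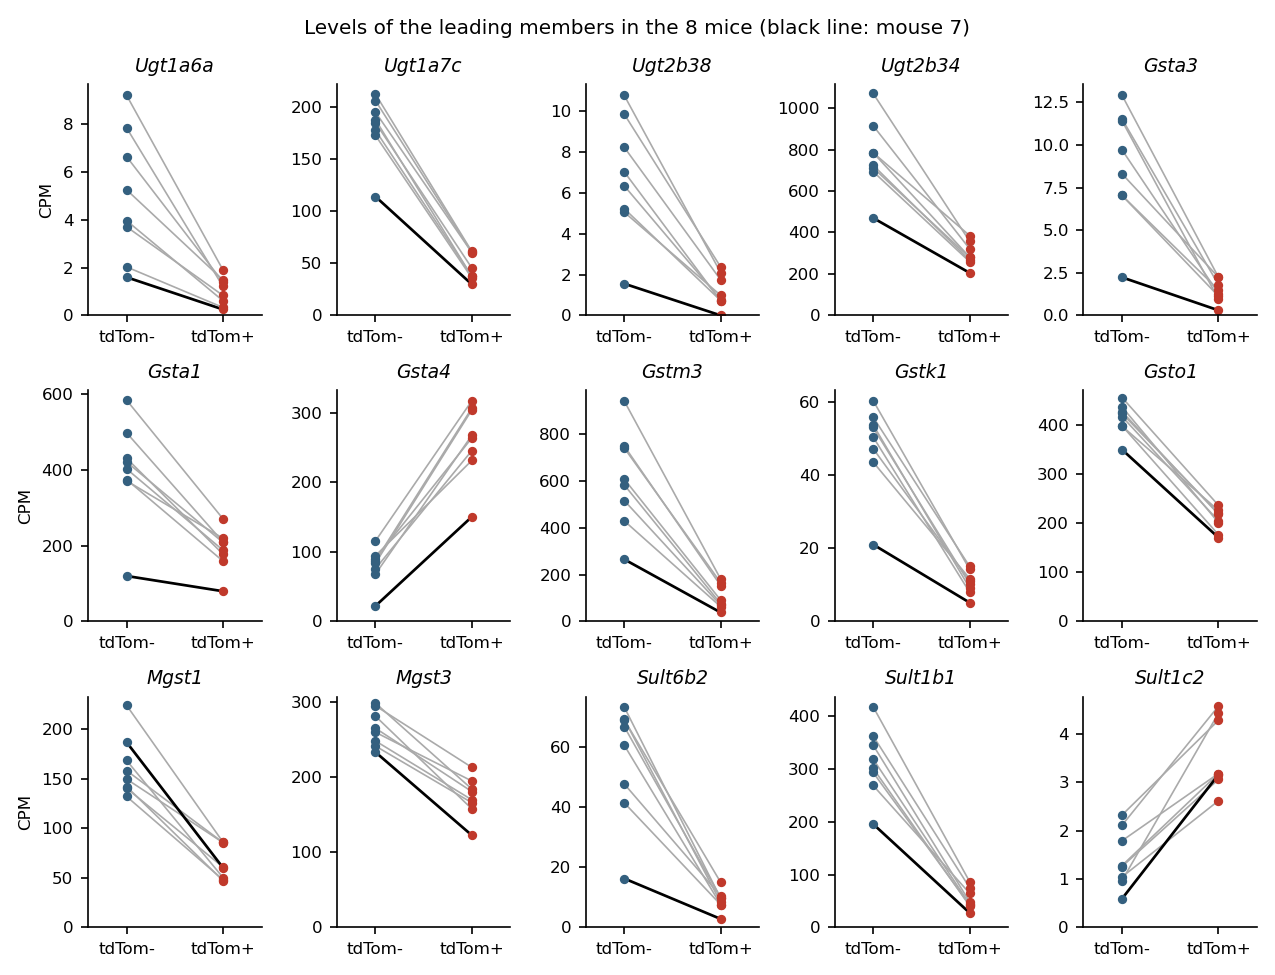
CPM of the 15 leading members of the families, with 1 line per mouse from its tdTomnegative to its tdTompositive library, linear axes from 0 and mouse 7 in black. Gsta4 and Sult1c2 rise in 8 of 8 mice and the other 13 genes fall.

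The donors of these reactions were compared next. Beside the counts of each list below, 30.0% of all genes tested were lower and 25.8% higher, and no list was tested as a set. Of 5 tested genes listed for the supply of UDP-glucuronate, 2 were lower and none was higher. Ugdh, the dehydrogenase that makes UDP-glucuronate, was lowest at 193, median 363 and highest at 441 CPM in tdTomnegative and 46.1, 66.0 and 104 CPM in tdTompositive libraries (log2 fold change -2.30 ± 0.08, SE, adjusted p = 1.98e-11). Slc35d1, a carrier of UDP-glucuronate into the endoplasmic reticulum, changed by -1.09. The list was wider than these 2 genes. Ugp2, which makes the precursor UDP-glucose for many other pathways too, had no call (-0.04, adjusted p = 0.504). Slc35b1 and Slc35a3, carriers of the same family as Slc35d1 but not specific to UDP-glucuronate, had no call either (-0.09 and 0.10, adjusted p = 0.233 and 0.236).

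Genes of PAPS supply split, with 4 higher and 4 lower of 8 tested. Papss2 and Papss1 are the 2 PAPS synthases. Papss2 was at 463 to 1410 CPM in tdTomnegative and 91.0 to 322 CPM in tdTompositive libraries (log2 fold change -2.28 ± 0.08, SE, adjusted p = 1.37e-11), and Papss1 was higher by 0.78 ± 0.06 (SE, adjusted p = 2.47e-08). Bpnt1, the cytosolic phosphatase that removes the by-product PAP, changed by -1.83, and Impad1, its counterpart in the Golgi, by 1.57 ± 0.09 (SE, adjusted p = 1.71e-09), from 63.1 to 86.7 CPM in tdTomnegative to 170 to 254 CPM in tdTompositive libraries. Slc35b2, which carries PAPS into the Golgi, was higher (0.62), and the other PAPS carrier Slc35b3 was lower (-0.30). The sulfate transporter Slc26a2 was higher (1.16) and the anion exchanger Slc26a3 was lower (-2.25). Among the sulfotransferases of the Golgi, which act on mucins, glycosaminoglycans and proteins, 7 of 14 tested were higher and 3 lower. Over all genes tested, 25.8% were higher and 30.0% lower. Chst4, which sulfates mucin-type sugars, was at 4.78 to 7.49 CPM in tdTomnegative and 115 to 222 CPM in tdTompositive libraries (log2 fold change 4.65 ± 0.11, SE, adjusted p = 3.91e-13), and Ndst1, of heparan sulfate synthesis, changed by -0.59 in the other direction. The summed goblet cell markers, whose cells make sulfated mucins, were 128104 to 264225 CPM in tdTompositive and 952 to 1511 CPM in tdTomnegative libraries, and their part in these values was not tested.

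**Figure D5:**
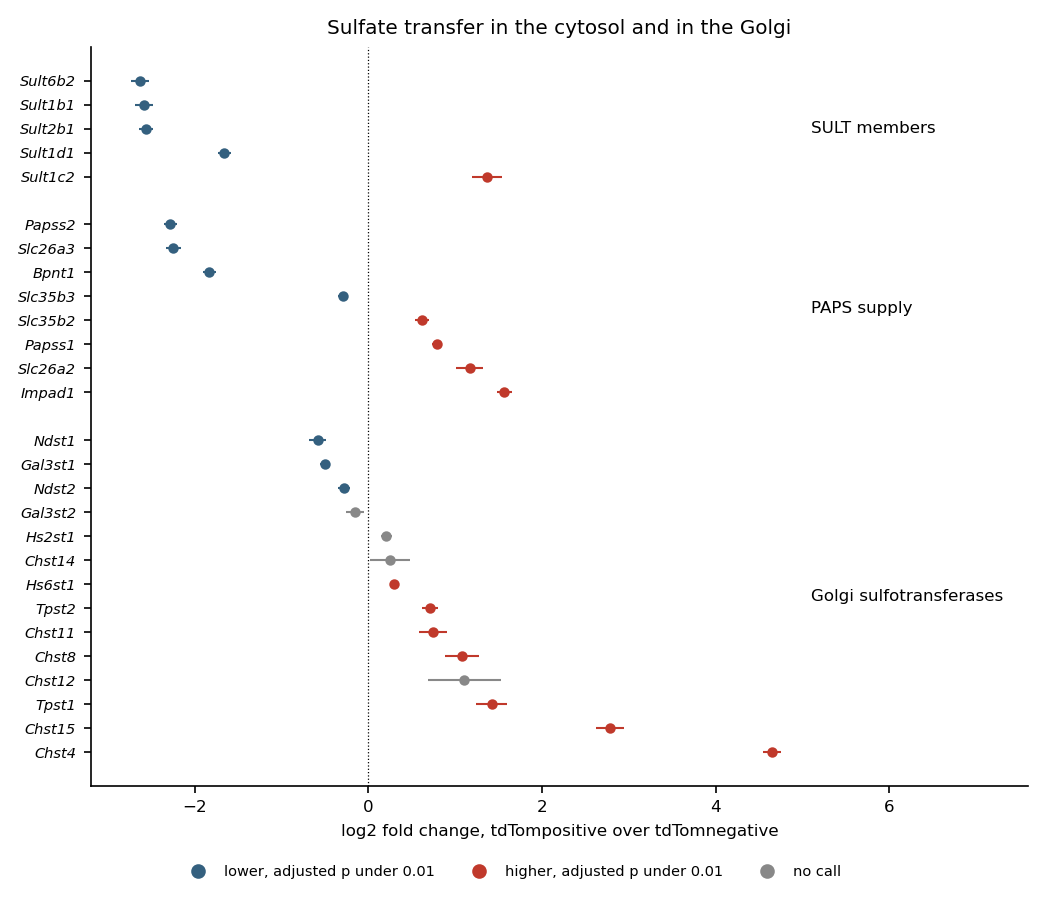
Log2 fold change with its standard error for the 5 tested SULT genes, the 8 tested genes of PAPS supply and the 14 tested Golgi sulfotransferases (edgeR, mouse as block, 8 mice). Of the SULT genes 4 are lower, and of the Golgi enzymes 7 are higher, up to 4.65 for Chst4.

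Glutathione supply was mixed too, with 4 of 12 tested genes higher and 7 lower, beside 25.8% and 30.0% of all genes tested. The 2 subunits of glutamate-cysteine ligase, the limiting step of synthesis, changed in opposite directions. The catalytic subunit Gclc was at 29.6 to 44.3 CPM in tdTomnegative and 44.9 to 57.7 CPM in tdTompositive libraries (log2 fold change 0.46 ± 0.07, SE, adjusted p = 6.93e-05). The modifier subunit Gclm was at 65.2 to 149 CPM and 36.8 to 49.9 CPM (-1.37 ± 0.08, SE, adjusted p = 5.27e-09). Neither overlapped between fractions. Glutathione synthetase, Gss, changed by -1.15. The rare genes Cbs, of cysteine synthesis, and Chac1, which breaks glutathione down, were higher by 2.67 and 4.22, and Chac1 had a median of 0.230 CPM in tdTomnegative and 2.49 CPM in tdTompositive libraries. Of the 13 tested NRF2 target genes outside the members, 10 were lower and 3 higher, and 5 of the 13 also stand in the glutathione list. Nqo1, a quinone reductase, changed by -1.67, and the cystine carrier Slc7a11 was higher by 1.38 at a median of 1.95 CPM.

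Of 8 tested enzymes that process the conjugates, several of them at the brush border, 7 were lower and none was higher. Ggt1, which removes glutamate from glutathione conjugates, was at 332 to 905 CPM in tdTomnegative and 24.5 to 125 CPM in tdTompositive libraries (log2 fold change -3.50 ± 0.12, SE, adjusted p = 1.86e-11). The dipeptidase Dpep1 was 9.19-fold lower and the N-acetyltransferase Nat8, which completes mercapturic acids, changed by -2.98 on the log2 scale. The lysosomal glucuronidase Gusb had no call (0.10, adjusted p = 0.314). Of 10 efflux pumps, 6 were lower and 2 higher, beside 30.0% and 25.8% of all genes tested. Abcc2, the apical pump for glucuronides and glutathione conjugates, was at 169 to 692 CPM in tdTomnegative and 35.3 to 103 CPM in tdTompositive libraries (log2 fold change -2.84 ± 0.13, SE, adjusted p = 2.04e-10). The basolateral pump Abcc3 had no call (0.07, adjusted p = 0.481), and Abcc4 and Abcc1 were higher by 2.27 and 1.22.

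Of 18 tested regulators of these genes, 14 were lower and none was higher. The xenobiotic receptor CAR, encoded by Nr1i3, was at 34.6 to 129 CPM in tdTomnegative and 5.31 to 19.8 CPM in tdTompositive libraries (log2 fold change -3.04 ± 0.11, SE, adjusted p = 2.98e-11). Nr1i2, which encodes the receptor PXR, changed by -1.74, Nfe2l2, which encodes NRF2, by -1.20, and the aryl hydrocarbon receptor gene Ahr by -0.70. The lineage factor Hnf4g was 3.99-fold lower, while Hnf4a had no call at a median of 611 CPM in tdTomnegative and 605 CPM in tdTompositive cells (-0.04, adjusted p = 0.613). The absorptive markers, with a median log2 fold change of -3.06, were lower in the same libraries, and their part in the changes of the members and of these lists was not tested.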

How the data were processed

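The authors aligned single-end 50-base reads to GRCm38 with TopHat2 and counted them per gene on the reverse strand with featureCounts. The file headers give featureCounts 1.5.0-p1, while the submitters' processing notes list Subread 1.5.2. The deposited values are raw counts, with no normalization. A read on exons of several genes was not assigned, and a read with several equal matches counted once, at its primary alignment. Symbols came from GENCODE M21 for 44671 of 45513 identifiers, and coordinates are those of the files (GRCm38, 1-based).

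Genes kept by filterByExpr (15323) were compared in R 4.3.3 with the quasi-likelihood test of edgeR 4.0.16, with TMM scaling and the mouse number as a block. Benjamini-Hochberg adjustment covered all genes tested (threshold 0.01), and the standard error is the log2 fold change divided by the square root of F. Per the series design each mouse gave both fractions, and the titles of same-numbered libraries share an identifier. Deviations from the fraction means correlated between same-numbered libraries at 0.426 on average (0.245 to 0.634), against -0.057 otherwise, and 7 of 8 tdTompositive libraries matched their own number best, while that of number 4 matched number 3. Sums and ratios of families carry no test. Sequence sharing was the share of 50-base stretches of GENCODE M21 transcripts found in another gene.

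In each family the genes named with all values were those with the highest mean CPM, the largest positive and the most negative log2 fold change past the threshold (at least 1 CPM in the higher fraction). In the other lists they were the most positive and most negative gene past the threshold, and further genes were named after their values were seen. Members and lists were chosen with earlier results of these data known. Alternatives were no replicate block, other scalings and filters, DESeq2 1.42.0, limma-voom (limma 3.58.1), a threshold of 0.05 and leaving out each mouse. Counts set the precision, which is lowest for members with few reads per library. Some genes of the lists and 1 of 3 motif searches, whose letters were more frequent among the members, are not reported here.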

Additional observations from a re-analysis of the deposited data

Results flagged for a closer look

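Within each fraction, the leading members and the family sums were examined for 1 library far from the other 7, by the gap to its nearest neighbour as a share of the whole range on the log2 scale, against Dixon's 95% critical value for 8 values. Of 44 sets, 14 passed, where chance gives about 1 in 20, or 2.2. The sets are not independent, since all come from the same 8 mice and the sums contain the genes. The 14 therefore cannot be tested against 2.2. In all 14 the library was that of mouse 7, and it was the lowest. In tdTomnegative cells the gap was 0.713 of the range for Gsta1 (120 CPM against 372 to 585 CPM in the other mice), 0.677 for Gsta4 (22.2 against 67.9 to 116), 0.637 for Gsta3 (2.23 against 7.04 to 12.9), 0.689 for Gstk1 (21.1 against 43.7 to 60.5), 0.619 for Sult6b2 (16.2 against 41.4 to 73.2), 0.667 for Ugt1a7c (114 against 173 to 212) and 0.585 for Ugt2b38 (1.55 against 5.05 to 10.8). The sums gave 0.707 for UGT1A, 0.703 for GSTA and 0.589 for SULT. In tdTompositive cells it was 0.565 for Gsta1 (79.8 against 159 to 271), 0.577 for Gsta4 (150 against 231 to 317), 0.576 for Sult6b2 (2.81 against 7.54 to 15.0) and 0.586 for the GSTA sum. The absorptive marker sums of mouse 7 were the lowest of both fractions as well, at 14550 and 1563 CPM, and their part in these values was not tested.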

How the results depend on the processing

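The 34 lower and 2 higher calls were the same in number without the replicate block (2 higher and 34 lower), with other scalings, with limma-voom, at a threshold of 0.05 and without any 1 mouse. No filter gave 36 lower, DESeq2 35, and at least 10 counts in every library 30, with 2 higher each. The last filter moved the median log2 fold change to -1.27 for UGT1A, -1.63 for UGT2, -0.70 for the other GST and -1.21 for all members, and turned the sign of Ugt1a6b (0.0318) and Gstt2 (0.0224), neither of which had a call. It moved the median of all genes tested from 0.02 to 0.12 and the share of higher calls from 46.2% to 57.0% (4448 higher and 3356 lower). Without mouse 3 that median was also 0.12, with 55.5% of calls higher. For the cause of this shift no test was made. Leaving out 1 mouse gave medians of -0.87 to -0.72 for the other GST and changes of -0.186 to 0.0228 for Ugt1a6b and -0.125 to 0.0245 for Gstt2. Counting only bases not shared with another gene moved the level of Ugt1a1 over Ugt1a7c in tdTomnegative cells from 1.33 to 1.47. The pairing changed no call of a member. Reads in exons common to UGT1A genes and members with fewer than 20 counts per library limit what these counts show. So does sequence of Gsta1, Gstp2, Ugt2a2 and Ugt2b genes that also occurs in other genes.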

Other observations

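Other conjugating enzymes that the naming rule did not include were mostly lower as well, with 8 of 11 tested lower and 2 higher in tdTompositive cells. Over all genes tested, 30.0% were lower and 25.8% higher. Ephx2, the soluble epoxide hydrolase, was at 224 to 715 CPM in tdTomnegative and 34.8 to 111 CPM in tdTompositive libraries (log2 fold change -2.89 ± 0.10, SE, edgeR adjusted p = 1.47e-11). The 2 that were higher were Hpgds, the glutathione-dependent prostaglandin D synthase (log2 fold change 1.98 ± 0.14, adjusted p = 3.66e-08), and Alox5ap, a partner protein of leukotriene synthesis (1.63 ± 0.14, adjusted p = 2.63e-07). Both belong to eicosanoid synthesis, while Ltc4s, which joins glutathione to leukotriene A4, was lower by -1.24 on the log2 scale. Hpgds and Alox5ap are known from tuft cells. The 7 tested tuft markers were higher too, with a sum of 95.2 to 388 CPM in tdTompositive and 21.5 to 127 CPM in tdTomnegative libraries. The part of tuft cells in these changes was not tested. In the paper, tuft cells carried no tdTom label shortly after a single pulse of tamoxifen, whereas the labels of these libraries give 3 days. In the arylamine and methyl transferases the changes were smaller, with -0.93 for Nat2, -0.80 for As3mt and -0.45 for Tpmt.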
